A study of Papio anubis and Macaca mulatta with 6 samples.

Results

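Dividing somatic cells were looked for among the testis cells of 2 prepubertal baboons (Papio anubis) and 2 prepubertal rhesus monkeys (Macaca mulatta). A barcode, the tag that marks the RNA of 1 droplet and usually of 1 cell, was counted as cycling when it held at least 1000 unique molecular identifiers (UMIs, single counted RNA molecules) and a UMI of at least 4 of the 10 mitotic genes UBE2C, TOP2A, BIRC5, PTTG1, PRC1, ASPM, CDK1, NUSAP1, CENPF and CDC20. The members were thus chosen by the detection of these genes. A barcode was counted as somatic when it held a UMI of fewer than 2 of the 10 germ cell genes DAZL, MAEL, STK31, TDRD1, PIWIL2, TEX15, SMC1B, MAGEB2, DDX4 and SOHLH1. This gave 115 cycling somatic barcodes of 44341 barcodes with at least 1000 UMIs, 42 of the baboon and 73 of the rhesus monkey. A further 109 barcodes met the criterion for cycling but held 2 or more germ cell genes and were left out. The baboon members were mostly Sertoli-like, as were most other baboon barcodes, and the rhesus members were mostly stroma-like. Most members of both species held more UMIs of the listed genes of mitosis than of replication and nucleotide synthesis. The choice of members by mitotic genes favours this.

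A dividing cell copies its DNA in S phase, condenses and separates the chromosomes in mitosis and then splits in cytokinesis. Cyclin B with CDK1 drives entry into mitosis, the kinesins and their partners build the spindle, and the anaphase-promoting complex, with CDC20 and UBE2C, ends it by marking cyclin B and securin (PTTG1) for degradation. In the prepubertal testis the Sertoli cells, which enclose the germ cells and secrete anti-Müllerian hormone (AMH), still divide and stop at puberty. The interstitial stroma and the endothelium grow with the organ.

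The cells were unselected testis cells, sequenced on the 10x Genomics platform from the 3′ end of the messenger RNAs, and baboon 2 was the only animal with version 3 of the reagents, the others having version 2. A pair of libraries was made from baboon 1 (1A and 1B) and from rhesus 2 (2A and 2B), and a single library from each of the other animals. The text deposited with the data gives ages of 15 and 20 months for the baboons and newborn and 26 months for the rhesus monkeys, while the text of the study gives each pair to the other species. No age could therefore be assigned to an animal. No strain, treatment or genotype was given. Both species serve as their own reference, cycling barcodes against the other barcodes with at least 1000 UMIs and fewer than 2 germ cell genes. The libraries held between 16875294 and 49803025 UMIs and between 5021 and 10403 barcodes with at least 1000 UMIs. Between 1 and 136 barcode sequences were shared between any 2 libraries, and 0 members were among them.

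The values of the rule itself describe the members and test nothing. UBE2C was found in 6 of 7, 6 of 7 and 24 of 28 members of the baboon libraries 1A, 1B and 2, and TOP2A, which untangles DNA, in 28 of 35 and 28 of 31 members of the rhesus libraries 2A and 2B. The symbols UBE2C and MAGEB2 were not used here in the rhesus monkey, where no entry carried them, so the rule rested there on 9 genes of each kind. The members of baboon 1 lay clear of the threshold, with 6 to 10 mitotic genes each and none at 4 or 5. In baboon 2, 5 members had 4 genes and 4 members had 5, while 16 barcodes with 3 genes lay just outside. In the rhesus libraries 1, 2A and 2B, 3, 10 and 6 members had 4 genes and 8, 11 and 12 barcodes had 3. The barcodes with 3 genes held a median of 2 UMIs of HMGB2 in baboon 2 and those with 4 genes a median of 3. In library 2A these medians were 3 and 5.5. For STMN1 the medians were 11 and 9 UMIs in baboon 2, where the barcodes just outside were the deeper ones (12266 against 2376 UMIs), and 4 and 7.5 in library 2A. Of the 42 baboon members, 27 held no germ cell gene of the rule and 15 held 1, as did 4 of 73 rhesus members. In the baboon this gene was TEX15 in 2, 3 and 7 members of the libraries 1A, 1B and 2.

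The share of cycling barcodes was higher in baboon 2 than in baboon 1 and in rhesus 2 than in rhesus 1. It was taken over the barcodes with at least 1000 UMIs and fewer than 2 germ cell genes, with exact 95% Clopper-Pearson intervals that cover counting error only. In the baboon it was 0.0782% (0.0315 to 0.161) in library 1A, 0.142% (0.0571 to 0.292) in 1B and 0.4% (0.266 to 0.578) in baboon 2. The rhesus shares were 0.0686% (0.0276 to 0.141) in rhesus 1, 0.553% (0.386 to 0.768) in 2A and 0.527% (0.358 to 0.747) in 2B. The intervals of 1A and 1B overlapped, as did those of 2A and 2B and those of 1B and baboon 2. The interval of 1A lay below that of baboon 2, and the interval of rhesus 1 lay below those of both rhesus 2 libraries. A barcode with more UMIs can show more of the 10 genes, and the members of baboon 2 were the deepest, with a median of 7121.5 UMIs against 2733 in the other barcodes of that library. After exactly 1000 UMIs had been drawn from every barcode, the shares were 0.0881%, 0.0800% and 0.241% in the baboon libraries and 0.0484%, 0.252% and 0.272% in the rhesus libraries. Baboon 2 and rhesus 2 stayed above the other animal of their species, but the intervals of baboon 1 (0.0441 to 0.149) and baboon 2 (0.143 to 0.380) now overlapped. The version of the chemistry cannot be told apart from the animal in the baboon.

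**Figure D1:**
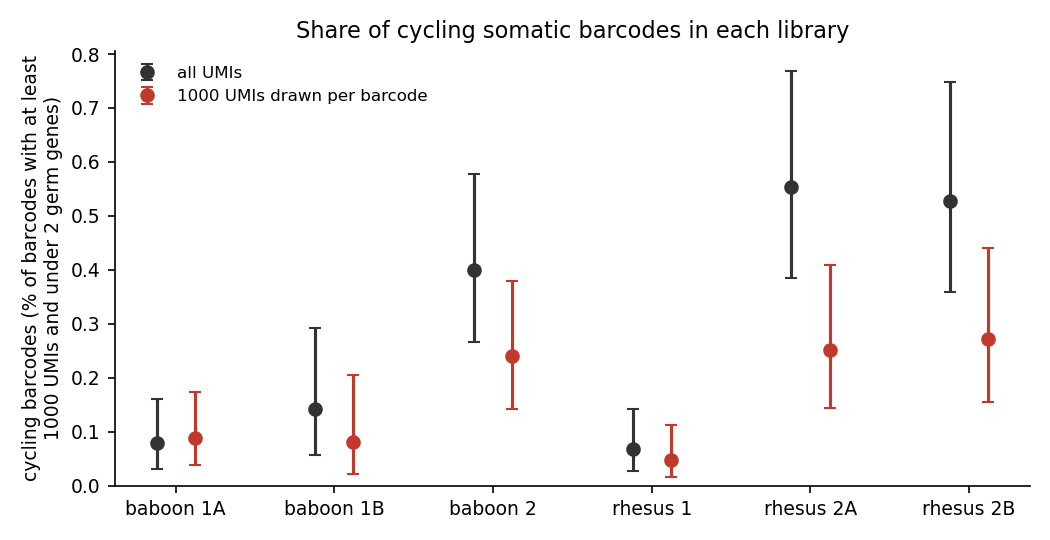
Share of barcodes that met the rule, in percent of the barcodes with at least 1000 UMIs and fewer than 2 germ cell genes, in each library. Black points used all UMIs and red points used 1000 UMIs drawn from each barcode, and the bars are exact 95% intervals for counting error. Baboon 2 and the 2 libraries of rhesus 2 lie above the other libraries on both scales.

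Cell types were assigned in 2 ways, from clusters made in each library and from the markers found in each barcode. The clustering left out the rule's mitotic genes and the listed genes of replication, nucleotide synthesis, mitosis and chromosome structure. Other genes that go with division, such as HMGB2 and STMN1, were not left out. In baboon 1, 9 of 14 members lay in Sertoli-like clusters, 3 in an unnamed cluster of library 1B, 1 in a lymphoid-like cluster and 1 in a germ-like cluster. The unnamed cluster was led by CCN1, TNFRSF12A and NR4A1 and held 9 of the 12 Sertoli markers, but a gene of another list, ERBB3, stood among its leading genes. Its 3 members held 4, 6 and 6 Sertoli markers. In baboon 2, 17 of 28 members lay in Sertoli-like clusters, 3 in a stroma-like cluster, 2 in an unnamed cluster led by INSL3, STC1 and DLK1, 1 in a germ-like cluster and 5 in a macrophage-like cluster. These 5 members went against that name. None of them held 1 of the 12 macrophage markers, and by their own markers 4 were stroma-like and 1 was Sertoli-like. By markers, 27 baboon members were Sertoli-like, 9 stroma-like, 1 lymphoid-like and 5 unnamed, and the share of Sertoli-like members was 64.3% by markers and 61.9% by clusters. Of the 20835 other baboon barcodes, 14434 lay in Sertoli-like and 3496 in stroma-like clusters, so most members and most others were Sertoli-like.

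The stroma held most rhesus members. In library 2A, 27 of 35 members lay in a stroma-like cluster, 5 in Sertoli-like clusters, 2 in the endothelial-like cluster and 1 in the Leydig-like cluster. In library 2B, 26 of 31 members lay in stroma-like clusters, 3 in Sertoli-like clusters and 2 in the Leydig-like cluster. In rhesus 1, 3 of 7 members lay in an unnamed cluster led by HAPLN1, ECEL1, NGFR and WFDC1, 3 in the germ-like cluster and 1 in the macrophage-like cluster. The 3 members of the unnamed cluster held 6, 7 and 8 stroma markers, and the member of the macrophage-like cluster held 9 macrophage markers. Of the 22341 other rhesus barcodes, 11136 lay in stroma-like and 7528 in Sertoli-like clusters. By markers, 55 rhesus members were stroma-like, 8 Sertoli-like, 2 endothelial-like, 1 macrophage-like and 7 unnamed. The 3 members in Leydig-like clusters were among the unnamed ones and held 3, 0 and 1 of the 7 Leydig markers.

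**Figure D2:**
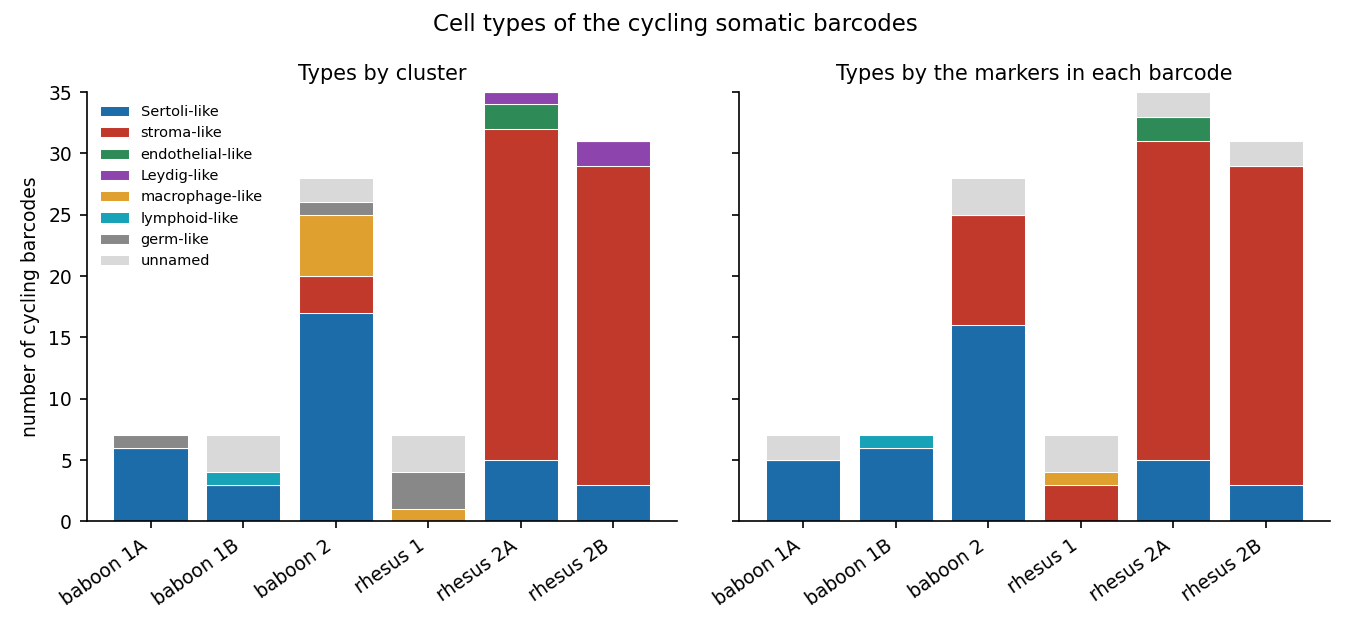
Number of cycling barcodes of each cell type in each library, with types taken from clusters (left) and from the markers of each barcode (right). Sertoli-like members (blue) form most of the baboon bars, and stroma-like members (red) form most of the bars of rhesus 2.

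The numbers of markers describe the types by markers, which were assigned from these same numbers. The 27 baboon members that were Sertoli-like by markers held a median of 5 Sertoli markers (range 3 to 10) and of 1 stroma marker (0 to 6), out of 12 listed for each. The 9 stroma-like baboon members held a median of 8 stroma markers (3 to 10) and of 1 Sertoli marker (0 to 7). The 55 rhesus stroma-like members held a median of 7 stroma markers (4 to 9) and of 1 Sertoli marker (0 to 5), and the 8 Sertoli-like members held 7 Sertoli markers (5 to 10) and 2 stroma markers (0 to 4). The 2 endothelial-like members of library 2A held 7 and 8 of the 12 endothelial markers, while the baboon members held 0. Of the 115 members, 5 lay in germ-like clusters, so that for them the name somatic rests on the criterion of fewer than 2 germ cell genes alone.

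**Figure D3:**
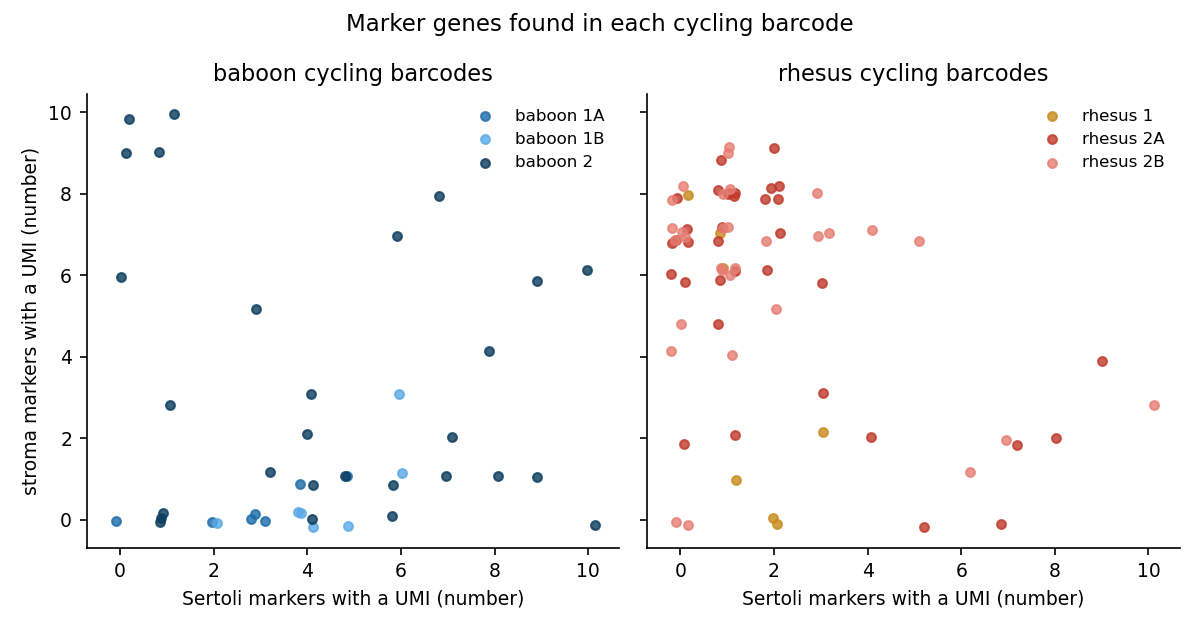
Number of Sertoli markers (horizontal) and of stroma markers (vertical) with a UMI in each cycling barcode, by species. Each point is 1 barcode, coloured by library and shifted slightly at random so that points do not hide each other. Most baboon points lie along the Sertoli axis, several points of baboon 2 lie at 4 or more of both, and most rhesus points lie at 4 to 9 stroma markers.

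Some barcodes held markers of more than 1 type, and the part of droplets with 2 cells in this was not tested beyond the values given here. Markers of more than 1 type, at least 3 of each, were found in 7 of 28 members of baboon 2, or 25%. They were found in 16.4% of other barcodes of the same library with the nearest UMI totals. In the libraries 2A and 2B they were found in 17.1% and 22.6% of the members and in 27.6% and 22.6% of the nearest others. The doublet caller marked 2 members, both in baboon 2. Where in the stroma the rhesus members lay depended on the clustering. At the resolution used, all 27 stroma-like members of library 2A lay in a cluster of 408 barcodes led by HAPLN1, TGFBI, WFDC1 and the rule's own TOP2A, and 0 lay among the 3531 barcodes of the other stroma-like cluster. In library 2B, 25 of the 26 lay in a cluster of 35 barcodes led by TOP2A, and 1 lay in the HAPLN1 and WFDC1 cluster. At a resolution of 1, library 2A also gave a TOP2A-led cluster, of 96 barcodes, which held 26 members.

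The cycling share of a cell type was computed for the Sertoli-like, stroma-like and endothelial-like clusters, and for a count of 0 the share that 3 barcodes of the total would give is stated as the limit. Among Sertoli-like barcodes it was 0.0757% in library 1A, 0.0943% in 1B and 0.507% (0.295 to 0.810) in baboon 2. The rhesus shares were 0 of 4202 in rhesus 1, which allows a share of up to 0.0714%, and 0.285% and 0.190% in 2A and 2B. Among stroma-like barcodes it was 0 of 1347 in baboon 1, which allows up to 0.223%, and 0.139% (0.0288 to 0.407) in baboon 2. For the rhesus stroma it was 0 of 3505 in rhesus 1, which allows up to 0.0856%, and 0.685% and 0.694% in 2A and 2B. By markers 9 members of baboon 2 were stroma-like, and only 3 of them lay in a stroma-like cluster and so in the stroma-like share. With types by markers the shares of both baboons together were 0.200% for stroma-like and 0.211% for Sertoli-like barcodes, against 0.0857% and 0.180% by clusters. Among endothelial-like barcodes 2 of 286 met the rule in library 2A, or 0.699% (0.0848 to 2.50), and 0 of 243 in 2B and 0 of 281 in the baboon, which allow up to 1.23% and 1.07%. Of these 2 members, 1 held no UMI of HMGB2 or STMN1.

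The order of Sertoli-like and stroma-like shares was opposite in the species but did not pass a test. The mean stroma-like share minus the mean Sertoli-like share was -0.224 percentage points in the baboon (exact two-sided permutation test over animals, n = 2 and 2, p = 0.667) and 0.225 percentage points in the rhesus monkey (p = 1 by the same exact test). With 2 animals the smallest p that this exact test allows is 0.333. Both shares come from the same animals, and within animals the difference was -0.0811 and -0.367 points in the baboons and 0 and 0.450 in the rhesus monkeys. As pairs these gave p = 0.5 and p = 1 (exact permutation test within animals, added after seeing the data), where the smallest p possible is 0.5. The rhesus value came from rhesus 2, where the stroma-like share was 0.690% (0.517 to 0.901) and the Sertoli-like share 0.240% (0.104 to 0.472). The stroma-like members of rhesus 1 lay in the unnamed cluster and so outside both shares.

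Most members carried more RNA of mitosis than of replication. The UMIs of the listed genes of DNA replication and nucleotide synthesis (S phase UMIs) and those of the listed mitotic cyclins and kinases and of the spindle and centromere genes (mitotic UMIs, without the rule's 10 genes) were summed in each barcode. The lists were of unlike length, with 37 and 15 genes for the S phase UMIs and 21, 26 and 26 for the mitotic UMIs. Baboon members held a median of 11 S phase UMIs and 42.5 mitotic UMIs, against 2 and 1 in the other barcodes. Rhesus members held 8 and 35, against 1 and 1. More mitotic than S phase UMIs were found in 35 of 42 baboon and 64 of 73 rhesus members, and the reverse in 6 and 8. Since the rule asks for genes that peak in mitosis, cells in S phase or late G1 are less likely to be members, and this split is no estimate of the phases of all dividing cells. The highest mitotic value was 229 UMIs, in a member of baboon 2 with 10 stroma markers, and the highest S phase value was 65 UMIs, in a Sertoli-like member of baboon 2. Among the main types the medians were 16.5 and 37 in the baboon Sertoli-like, 13.5 and 36.5 in the rhesus Sertoli-like and 8 and 36 in the rhesus stroma-like members. The 2 endothelial-like members held 0 and 2 S phase UMIs and 16 and 3 mitotic UMIs.

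**Figure D4:**
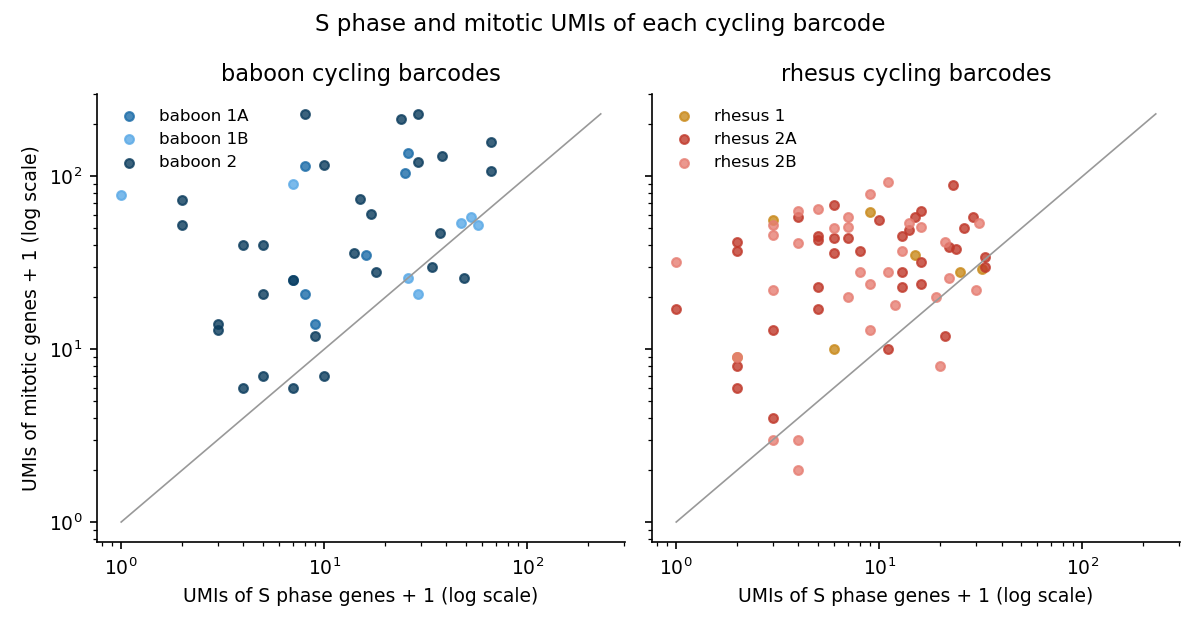
UMIs of S phase genes (horizontal) and of mitotic genes (vertical) in each cycling barcode, both plus 1 on a log scale, by species. Points above the grey line of equal UMIs are 35 of 42 baboon and 64 of 73 rhesus members.

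MKI67, the usual mark of dividing cells in tissue sections, was not part of the rule. It was found in 3 of 7, 4 of 7 and 12 of 28 members of the baboon libraries 1A, 1B and 2, and in 2 of 7, 17 of 35 and 20 of 31 members of the rhesus libraries 1, 2A and 2B. Of all members 45.2% in baboons and 53.4% in rhesus monkeys held a UMI of it, against 0.0576% and 0.170% of the other barcodes. The median depths behind these shares were 4976.5 and 2842 UMIs in the members and 2099 and 1623 in the others. At 1000 drawn UMIs, 26.7% of 30 baboon and 29.7% of 37 rhesus barcodes that met the rule held MKI67. HMGB2, a chromatin protein, was found in 90.0% and 97.3% of the same barcodes, against 11.1% and 18.5% of the others. STMN1, which destabilises microtubules, was found in all of them, against 25.1% and 32.2% of the others.

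The cycling and the other barcodes were compared gene by gene on UMI counts summed per animal, with edgeR's quasi-likelihood test, Benjamini-Hochberg adjustment and each species alone. The genes of the rule were left out. In the baboon 227 genes were higher and 18 lower at an adjusted p under 0.05 of 14486 tested, or 1.57% and 0.124%. Of the rhesus genes 186 were higher and 44 lower among 11670, or 1.59% and 0.377%. Genes of the cell cycle vary together with the 10 genes that chose the members, so their differences are given as a description of the members and not as independent support, and nothing is read from these shares. Each animal gave both kinds of barcode, and with the animal as a block the counts of lower genes were 39 and 5. Of the lower genes, 14 of 18 and 22 of 44 rested on 5 or fewer UMIs in all members together. With the other barcodes matched to the members on UMIs, edgeR called 0 genes lower in the baboon, where 507 genes had an unadjusted p under 0.05, and 2 in the rhesus monkey. The median log2 fold change of all genes was -0.30 in baboons and -0.37 in rhesus monkeys and is the level from which a gene's change should be read. Values below are log2 fold changes ± standard error, cycling over other barcodes, and levels in CPM (the gene's UMIs per 1000000 of the summed UMIs), always animal 1 before animal 2.

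**Figure D5:**
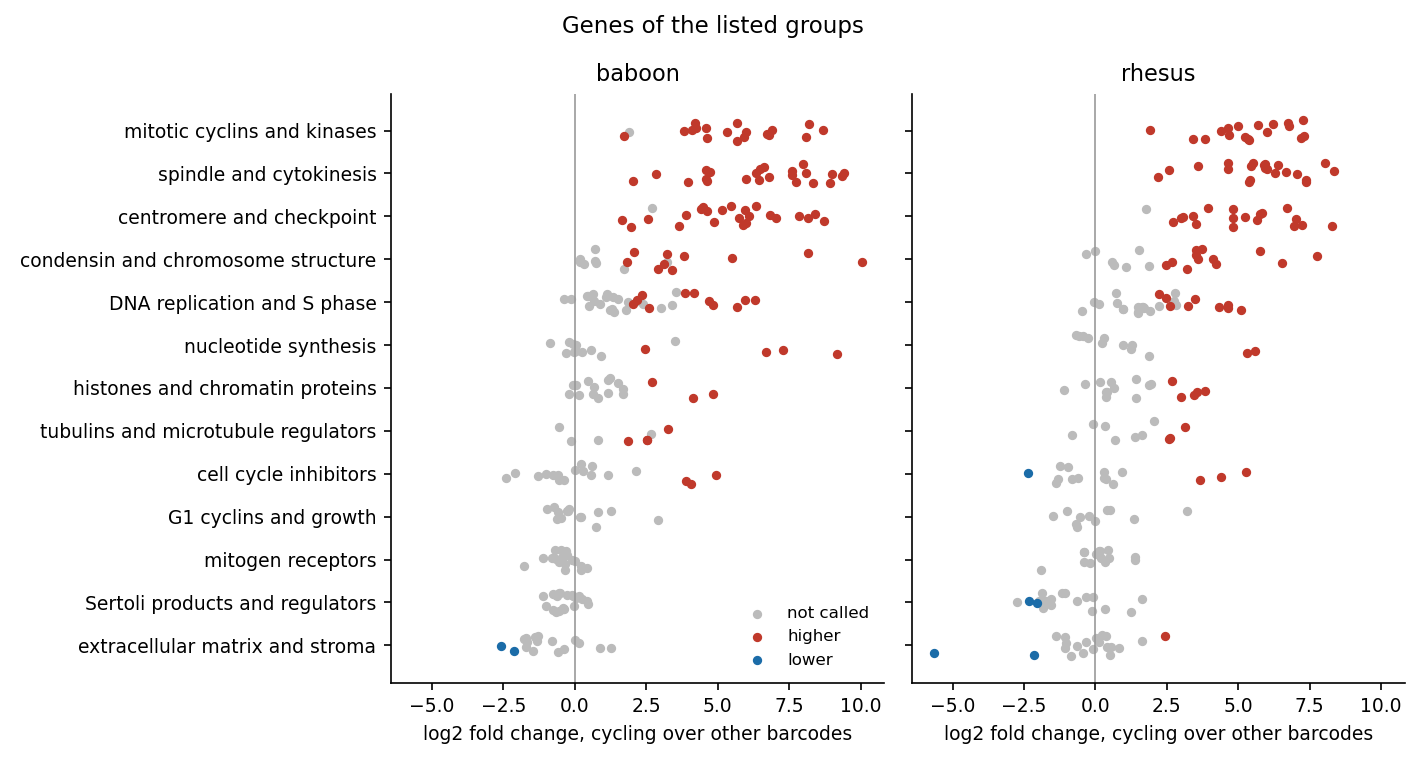
Log2 fold change of each listed gene, cycling over other barcodes, by gene group, in the baboon (left) and the rhesus monkey (right). Red points were higher and blue points lower at an adjusted p under 0.05, grey points were not called, and genes without a UMI in the members are not drawn. Nearly all points of the first 3 groups are red, and those of G1 cyclins and mitogen receptors are grey.

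Cyclins and kinases of mitosis rose almost without exception. Of those tested, 18 of 19 in baboons and 18 of 18 in rhesus monkeys were higher, with medians of 5.66 and 5.36 on the log2 scale. AURKB, the kinase of the chromosomal passenger complex, stood at 589 and 97.2 CPM in the cycling and 0.358 and 0.687 CPM in the other baboon barcodes, and at 282 and 226 CPM against 1.41 and 0.841 CPM in the rhesus monkey. In each animal the members lay far above the others, by 8.67 ± 0.62 and 7.26 ± 0.70 (edgeR adjusted p = 8.13e-25 and 3.73e-22). CCNB1, the mitotic cyclin, rose by 5.92 ± 0.53 and 5.34 ± 0.65, and CCNA2, the cyclin of S phase and G2, by 6.71 ± 0.55 and 5.69 ± 0.64. FOXM1, the transcription factor of the G2 and M genes, rose by 6.90 ± 1.08 and 7.21 ± 0.78 and was found in 11 of 42 and 23 of 73 members. The smallest change among the called kinases and their partners was that of CKS1B, a CDK subunit, by 1.72 ± 0.48 and 1.90 ± 0.57, whose baboon call was lost without library 1A (1.49) or 1B (1.69) and whose rhesus call was lost with the animal as a block (1.87) and without library 2A (1.92) or 2B (1.80).

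The machinery of the spindle and of cytokinesis had the highest medians of the groups. All 23 genes tested in the baboon and all 21 in the rhesus monkey were higher, with medians of 6.63 and 5.92. CEP55, which acts at the last cut between daughter cells, was at 133 and 121 CPM against 0.0299 and 0.25 CPM in the baboon and rose by 9.42 ± 0.72 there and by 7.37 ± 0.99 in the rhesus monkey. KIF23, the kinesin of the central spindle, rose by 8.10 ± 0.59 and 8.03 ± 0.99. TPX2, which activates Aurora A on the spindle, was found in 27 of 42 and 32 of 73 members. The smallest rise in this group was that of CKAP5, a microtubule polymerase, in the baboon (2.03 ± 0.46) and that of KIF22, a chromosome kinesin, in the rhesus monkey (2.19 ± 0.56), the latter lost with the animal as a block.

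At the centromere 23 of 24 baboon and 18 of 19 rhesus genes were higher, with medians of 5.61 and 4.83. ZWINT, a partner of the kinetochore, was found in 23 of 42 and 57 of 73 members, at 399 and 146 CPM against 0.836 and 0.718 CPM in the baboon and at 470.3 and 545 CPM against 1.36 and 3.66 CPM in the rhesus monkey. SGO2, which protects the cohesin of the centromere, rose by 8.39 ± 0.58 and 7.01 ± 0.71. BUB3, of the spindle checkpoint, was the 1 gene that missed the threshold in the rhesus monkey with 1.76 ± 0.56 (edgeR adjusted p = 0.0823), and its baboon call (1.66 ± 0.46) was lost without library 1A (1.24) or 1B (1.76). Of the condensins and other chromosome proteins, 10 of 18 and 12 of 19 were higher. MKI67 was at 418 and 166 CPM in the cycling and 0.0597 and 0.312 CPM in the other baboon barcodes and at 235 and 342 CPM against 0.778 and 1.3 CPM in the rhesus monkey, a rise of 10.04 ± 0.65 and 7.76 ± 0.70. The condensin subunit SMC4 rose by 3.83 ± 0.52 and 3.22 ± 0.59. The cohesin subunits SMC1A, SMC3, RAD21, STAG1 and STAG2, which hold sister chromatids together until they separate in mitosis, passed the test in neither species, with values between -0.33 and 1.08.

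Promoters of genes that move together in dividing cells often hold the cell cycle homology region (CHR, searched as TTTGAA) and the CCAAT box (searched as CCAAT). Both were searched on both strands in the 250 bases before the annotated start of each protein-coding gene of the rhesus genome Mmul_10 with the RefSeq annotation. Of the 169 genes higher in the rhesus members that had such a promoter, 39 (23.1%) held a CHR, 75 (44.4%) a CCAAT box and 26 (15.4%) both. Over all 20782 promoters the shares were 12.5%, 31.0% and 4.46%, and over the 10335 promoters of genes tested they were 9.83%, 32.1% and 3.52%. Of the rule's 10 genes, 5 held a CHR and 8 a CCAAT box. These are counts of letters, with no test, and say nothing of the factors that bind. The promoters of ZWINT, CKAP2 and CIT are shown because, among the listed mitotic genes that rose in both species and held both motifs, these 3 rose most in the rhesus monkey. ZWINT lies at chr9:81714830-81715079 on the plus strand, CKAP2, which binds microtubules of the spindle, at chr17:30917382-30917631 on the plus strand, and CIT, the citron kinase of cytokinesis, at chr11:119645305-119645554 on the minus strand. Each runs 5′ to 3′ along its gene and ends at the base before the start, with the motifs of either strand in capitals. In CIT a CCAAT box and a CHR of the other strand lie directly next to each other.
ZWINT: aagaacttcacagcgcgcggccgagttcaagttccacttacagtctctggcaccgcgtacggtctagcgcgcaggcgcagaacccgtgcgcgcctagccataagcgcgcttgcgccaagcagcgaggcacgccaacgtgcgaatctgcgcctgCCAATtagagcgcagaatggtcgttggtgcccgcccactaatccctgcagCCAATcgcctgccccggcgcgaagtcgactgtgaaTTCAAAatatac
CKAP2: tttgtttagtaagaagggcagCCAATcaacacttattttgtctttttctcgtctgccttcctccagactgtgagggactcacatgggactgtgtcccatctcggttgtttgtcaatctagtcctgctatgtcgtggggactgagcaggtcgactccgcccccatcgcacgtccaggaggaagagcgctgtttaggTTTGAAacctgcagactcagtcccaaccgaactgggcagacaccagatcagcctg
CIT: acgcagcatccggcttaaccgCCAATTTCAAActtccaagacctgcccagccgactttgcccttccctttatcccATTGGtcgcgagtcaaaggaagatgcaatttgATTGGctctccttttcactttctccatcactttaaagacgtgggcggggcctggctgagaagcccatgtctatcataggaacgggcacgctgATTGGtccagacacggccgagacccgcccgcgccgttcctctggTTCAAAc

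Of the genes of DNA replication tested, 11 of 34 in baboons and 9 of 27 in rhesus monkeys were higher, with medians of 1.83 and 1.89, and none was lower. PCNA, the sliding clamp of the polymerases, was at 646 and 134 CPM against 53.9 and 43.3 CPM in the baboon and 376 and 425 CPM against 64.8 and 62.3 CPM in the rhesus monkey, a rise of 2.35 ± 0.48 and 2.21 ± 0.56. Its rhesus call was lost with the animal as a block, and its baboon call was lost without library 1B (1.52). Of the MCM helicase, MCM3 rose in the baboon (2.17 ± 0.58) and MCM4 in the rhesus monkey (2.61 ± 0.65), calls lost without library 1B (1.52) and 2B (2.30), while MCM2, MCM5, MCM6 and MCM7 passed in neither. CDT1, which loads the helicase at origins, rose in the rhesus monkey by 4.33 ± 0.65 and was not called in the baboon (3.39 ± 1.11). CLSPN, which serves the replication checkpoint, rose in both species, by 5.67 ± 1.00 and 5.08 ± 0.98, on 8 and 6 UMIs, and its rhesus call was lost without library 2B (4.01). CCNE2, the cyclin of entry into S phase, rose by 6.30 ± 0.97 in the baboon and was not tested in the rhesus monkey.

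Within nucleotide synthesis the changes fell on the thymidylate and deoxyribonucleotide steps. TYMS, thymidylate synthase, was found in 20 of 42 and 44 of 73 members, against 0.288% and 1.11% of the other barcodes. It stood at 361 and 121 CPM against 1.22 and 0.781 CPM in the baboon and 564 and 383 CPM against 4.33 and 8.95 CPM in the rhesus monkey, a rise of 7.27 ± 0.58 and 5.58 ± 0.63. RRM2, the regulated subunit of ribonucleotide reductase, rose by 6.68 ± 0.59 and 5.29 ± 0.63, and TK1, thymidine kinase, by 9.16 ± 1.05 in the baboon. RRM1 passed in the baboon with 2.44 ± 0.47 and was at 1.88 ± 0.60 in the rhesus monkey. The purine and pyrimidine enzymes PAICS, GART, ATIC, CAD, UMPS and IMPDH2 did not pass in either species. In all, 4 of 15 and 2 of 12 genes of this group were higher.

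Among chromatin proteins 3 of 17 baboon and 5 of 17 rhesus genes were higher. HMGB2 was at 3835 and 1522 CPM against 128 and 87.6 CPM in the baboon and 3669 and 4002 CPM against 323 and 115 CPM in the rhesus monkey, and rose by 4.13 ± 0.65 and 3.56 ± 0.62 (edgeR adjusted p = 5.3e-07 and 1.37e-06). Its relative HMGB1 did not pass, with 1.17 ± 0.57 and 1.40 ± 0.58. EZH2, the methyltransferase of Polycomb, rose by 2.71 ± 0.54 and 3.83 ± 0.61. The histone variants H2AFZ and H2AFX rose in the rhesus monkey, by 2.99 ± 0.60 and 3.46 ± 0.60. Of the tubulins and their regulators 4 of 8 and 3 of 10 were higher. STMN1 was at 5506 and 2847 CPM against 326 and 311 CPM in the baboon and 3198 and 4071 CPM against 362 and 496 CPM in the rhesus monkey, and its rhesus call was lost with the animal as a block. The tubulin TUBB4B rose in the baboon by 2.51 ± 0.61 and TUBA1C in the rhesus monkey by 3.12 ± 0.58. TUBB rose in the baboon by 2.52 ± 0.66, a call that was lost without library 1A (2.25), and was at 1.62 ± 0.58 in the rhesus monkey (edgeR adjusted p = 0.171).

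The listed G1 cyclins and growth genes did not pass the test with all barcodes. None of 15 baboon and 12 rhesus genes of G1 cyclins and growth was called by edgeR in either direction, with medians of -0.23 and -0.38, near the median of all genes. CCND2, a D cyclin of entry into the cycle, was at 75.9 and 271 CPM against 167 and 313 CPM in the baboon, and CCND1 had no UMI in the members of either species. MYC was at -0.99 ± 0.86 and -0.23 ± 0.62. Mitogen receptors were also called in neither direction, 0 of 18 and 0 of 16.

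Of the inhibitors of the cell cycle, the same 3 were higher in both species. CDKN2C, an INK4 inhibitor of CDK4 and CDK6, was at 494 and 198 CPM against 13.6 and 14.6 CPM in the baboon and 188 and 434 CPM against 10.3 and 14.7 CPM in the rhesus monkey, a rise of 4.08 ± 0.49 and 4.41 ± 0.60. It was found in 24 of 42 and 46 of 73 members. CDKN2D, also of the INK4 family, rose by 3.87 ± 0.56 and 3.64 ± 0.63, and CDKN3, a phosphatase that acts on CDKs, by 4.93 ± 0.50 and 5.25 ± 0.63. CDKN1A and CDKN1B, which hold cells before S phase, were not called, with 0.27 ± 0.47 and 0.39 ± 0.59 for CDKN1B. GADD45B, a stress gene of this list, was lower in the rhesus monkey, a call lost with the animal as a block and without library 2A (-2.38).

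The genes that name the cell types were described next, since the mix of types differs between members and others. In the baboon no Sertoli marker or Sertoli product was called, and AMH was at 3835 and 5665 CPM in the cycling and 6136 and 6305 CPM in the other barcodes. In the rhesus monkey AMH was at 423 and 974 CPM against 3173 and 2313 CPM and was lower, at -2.33 ± 0.60 on the log2 scale (edgeR adjusted p = 0.00776), a call that was lost with the animal as a block. Only 8 of the 73 rhesus members were Sertoli-like, and the part of this makeup in the value was not tested. No stroma marker was called, of 12 tested in baboons and 10 in rhesus monkeys. All 11 endothelial markers tested in the baboon had no UMI in the 42 members. VWF and EGFL7, both made by endothelium, were called there, at least 2.55-fold and 3.69-fold lower when 3 UMIs over the group are taken as the floor. The call of VWF was lost without library 1B. RGS5, of pericytes, was also lower in the baboon, at -4.03 ± 1.04 and on 1 UMI in the members, a call lost without library 1B (-3.69). With all barcodes, immediate early and stress genes, which respond to tissue handling, were called by edgeR in neither species, 0 of 15 and 0 of 13. JUN was at -0.60 ± 0.72 and -1.36 ± 0.58. Among rhesus barcodes with stroma markers 1 of 13 genes of this list was lower, with medians of -1.08 for the list and -0.38 for all genes.

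IGFBP3 and IGFBP5, which bind insulin-like growth factors outside the cell, were lower in both species, while IGFBP7 was called in neither. IGFBP3 was at 0 and 68.8 CPM in the cycling and 131 and 375 CPM in the other baboon barcodes, and at 0 and 9.23 CPM against 540.3 and 83.1 CPM in the rhesus monkey, where 2 UMIs in 1 member were all that was found. In each of the 4 animals the members lay below the others, and the log2 fold changes were -2.60 ± 0.56 and -5.65 ± 0.94 (edgeR adjusted p = 0.000738 and 3.19e-07). IGFBP5 was at -2.12 ± 0.53 and -2.17 ± 0.59, with the baboon call lost without library 1B (-1.95) and the rhesus call lost with the block (-3.02). With the other barcodes matched on UMIs neither gene was called in either species. FN1, fibronectin, was higher in the rhesus monkey by 2.45 ± 0.60. HBB, of red blood cells, was lower in both species, in the baboon with no UMI in the members and at least 8.86-fold lower, and in the rhesus monkey at -5.19 ± 0.79 on the log2 scale.

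Single barcodes carried some of the calls. CD3D, CD3G and NKG7, of T and NK lymphocytes, were higher in the baboon on the UMIs of the 1 lymphoid-like member of library 1B alone, and CSF1R, of macrophages, was higher in the rhesus monkey on 1 member alone. With the animal as a block the calls of CD3D (3.44), CD3G (3.93) and CSF1R (2.53) were lost. Without library 1B the values of CD3D and NKG7 were -8.13 and -7.92. More than 50% of the UMIs came from 1 barcode in 19 of the 227 higher genes of the baboon and in 12 of the 186 of the rhesus monkey. INSL3, the hormone of Leydig cells, had 114 UMIs in the rhesus members, 93.0% of them in 1 barcode, and no UMI in the baboon members.

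Outside these lists, 125 genes were higher in baboons and 93 in rhesus monkeys. Those with the largest mean change among genes called in both species included more genes of dividing cells. SHCBP1, which acts at the midbody, was found in 15 of 42 and 18 of 73 members and rose by 9.00 ± 1.06 and 7.51 ± 0.99. PCLAF, a partner of PCNA, rose by 7.16 ± 0.59 and 6.61 ± 0.67, and UBE2T, of the Fanconi pathway of DNA repair, by 6.69 ± 0.54 and 6.43 ± 0.72. PARPBP, PIMREG, DIAPH3, PKMYT1, ARHGEF39, RDM1, GAS2L3, FAM110A and MYBL1 complete the 12. MYBL1, a MYB factor best known from meiosis, rose by 4.84 ± 1.01 and 5.38 ± 1.05, on 9 and 4 UMIs in the members. Too few genes were lower in both species to be ranked, and those called in at least 1 species and below the others in all 4 animals included IGF1, QTRT1, APOD and RAMP2, of which RAMP2 was called in the baboon and lost its call without library 1B (-3.76). APOD, an apolipoprotein, had 1 UMI in the baboon members and was at -4.94 ± 0.93 there and at -1.36 ± 0.59, not called, in the rhesus monkey. PCP4 and CRYAB had no UMI in the rhesus members and were at least 6.82-fold and 4.23-fold lower there, the call of CRYAB being lost with the animal as a block, and QTRT1 had none in the baboon members and was at least 3.74-fold lower. IGF1 was called in the rhesus monkey alone (-3.17 ± 0.90, on 3 UMIs in 1 member, lost with the block and without library 2B at -2.56), and stood at 0 and 4.05 CPM against 17.6 and 38.5 CPM in the baboon.

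The cycling and the other barcodes were next compared within the type with most members in each species. In the baboon 26 cycling Sertoli-like barcodes, 9 of baboon 1 and 17 of baboon 2, were compared with 14434 other Sertoli-like barcodes. Of 12958 genes tested, 174 were higher (1.34%) and 14 lower (0.108%), and nothing is read from these shares because the rule used this contrast. Again the mitotic groups were higher, with 15 of 18 cyclins and kinases, 19 of 20 spindle genes and 19 of 23 centromere genes, and so were 10 of 33 genes of replication. MKI67 was at 298 and 83.3 CPM in the cycling and 0.0387 and 0.185 CPM in the other Sertoli-like barcodes, and was found in 11 of 26 members. MXD3, of the MYC and MAX network, was at 398 and 105 CPM against 0.155 and 0.139 CPM, and IQGAP3, a scaffold protein of the cytoskeleton, at 199 and 44.4 CPM against 0 and 0.0462 CPM.

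The genes of the Sertoli cell itself were not called in these members, which does not show that their levels were the same. AMH was found in 26 of 26 of them, at 3479.9 and 6429 CPM against 6449 and 8168 CPM, with a log2 fold change of -0.97 ± 0.72 (edgeR adjusted p = 0.85). SOX9, the transcription factor that sets Sertoli fate, was at 166 and 316 CPM against 352 and 253 CPM, lower in baboon 1 and higher in baboon 2. INHA, an inhibin subunit, was at -0.97 ± 0.55, GATM, an enzyme of creatine synthesis, at -1.26 ± 0.55, and DMRT1, a factor of testis fate, at 0.20 ± 0.54. Of the 10 Sertoli markers tested, 9 had a value below 0, with a median of -0.62 beside -0.31 over all genes. Among the 14 lower genes were MMP23B, a metalloprotease, at 0 and 5.55 CPM against 130.0 and 69.7 CPM, and GPX1, a glutathione peroxidase, at 133 and 77.7 CPM against 315 and 215 CPM and with a UMI in 14 of 26 members. The call of GPX1 was lost with the animal as a block and without library 1A or 1B, at -2.09 in both cases. With the animal as a block 2 genes were lower, and with the others matched on UMIs edgeR called 0, where 377 genes had an unadjusted p under 0.05.

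In the rhesus monkey 55 cycling barcodes with stroma markers, 3 of rhesus 1 and 52 of rhesus 2, were compared with the other barcodes of stroma markers. The choice by markers pooled all stroma, so the mix of its clusters was not held fixed. The part of this mix in the values below was not tested. Of 10124 genes tested, 152 were higher (1.5%) and 19 lower (0.188%), and again nothing is read from these shares. The sum of rhesus 1 held 8165 UMIs against 154023 in rhesus 2, so rhesus 2 carried most of the comparison. The mitotic groups were higher with 13 of 14 cyclins and kinases, 16 of 16 spindle genes and 16 of 17 centromere genes. Of 12 genes of G1 cyclins and growth 1 was higher, E2F2, at 3.75 ± 0.87. MKI67 was at 367 and 448 CPM against 0.106 and 1.77 CPM, found in 35 of 55 members, and KPNA2, an importin, at 1715 and 325 CPM against 8.98 and 6.43 CPM. HMGB2 was found in all 55 of these members and rose by 3.82 ± 0.88, a call that the block did not keep.

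The stroma markers themselves were not called, 0 of 10, which does not show that their levels were the same. DCN, decorin, was found in 55 of 55 members, at 1959.6 and 3272 CPM against 6665 and 3008 CPM, lower in rhesus 1 and higher in rhesus 2. COL1A1, of type I collagen, was at -0.46 ± 0.78 and COL3A1, of type III collagen, at 0.14 ± 0.72. HAPLN1 and WFDC1, which led the cluster of the stroma-like members of library 2A, were not called either, at 122 and 110.4 CPM against 51.1 and 32.9 CPM for HAPLN1 and 857 and 571 CPM against 187 and 135 CPM for WFDC1, although the members lay above the others in both animals. IGFBP3 was at 0 and 13.0 CPM against 1087 and 121 CPM and was lower, at -6.04 ± 1.16 on the log2 scale (edgeR adjusted p = 2.75e-05). INSL3 was lower at -5.36 ± 1.05, ZFP36, which shortens the life of messenger RNAs, at -3.16 ± 0.88, and CFD, complement factor D, had no UMI in the members and was at least 6.55-fold lower. With the animal as a block 1 gene was lower, and the calls of IGFBP3, ZFP36 and CFD were lost.

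Of the genes higher in 1 species, most were also higher in the other. Over the 9303 gene symbols tested in both, 150 were higher in the baboon, 146 in the rhesus monkey and 108 in both, or 72.0% and 74.0% of each list. Of the lower genes 4 were shared, or 30.8% of 13 in baboons and 12.1% of 33 in rhesus monkeys. No test was run on these counts, since the same genes chose the members in both species.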

How the data were processed

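Single-cell RNA sequencing was done on unselected testis cells of 4 animals, 2 of each species. The submitters' processing notes and the study's methods name Cell Ranger 3.1.0 for alignment, the builds Panubis1.0 (baboon) and Mmul_10 (rhesus monkey), and Seurat 3.2.3 for later steps. The authors deposited raw UMI counts per gene and barcode, with 34178 baboon and 21356 rhesus genes, and no cell type annotation was used here. The members and gene lists were chosen with earlier results of these data known.

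Barcodes with at least 1000 UMIs were kept, and members were found by the rule given above. Each library was clustered alone with scanpy 1.11.5 on 2000 variable genes, with 30 components, 15 neighbours and Leiden resolution 0.5. The rule's mitotic genes and the listed genes of replication, nucleotide synthesis, mitosis and chromosome structure were left out of the clustering. Clusters were called by marker lists, and single barcodes by the list with the most markers. The barcodes with the highest doublet scores, 0.8% for each 1000 barcodes, were marked and kept. Draws to 1000 UMIs had a fixed seed, and barcodes were then chosen again by the rule.

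UMI counts were summed per animal, separately for cycling and other barcodes, and compared with edgeR 4.0.16 (R 4.3.3), TMM scaling, the quasi-likelihood test and Benjamini-Hochberg adjustment, each species alone. DESeq2 1.42.0 was an alternative. Cells were not treated as replicates, and n was 2 animals per species. The p-values rest on a spread between the sums that edgeR estimated with information shared across genes. They do not measure the spread of a single gene between 2 animals alone. Cycling and other sums of an animal come from the same animal and are paired, which the main fit did not use. Their deviations from the group means correlated at 0.394 (baboon) and 0.295 (rhesus monkey), and at 0.268 and 0.233 in the Sertoli-like and stroma-like comparisons. The code was tested on simulated data. Scaling by DESeq2's size factors moved the median log2 fold change from -0.30 to -0.22 and from -0.37 to -0.24.

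Genes outside the lists were named by the 12 largest mean log2 fold changes among those called in both species with a mean of at least 20 CPM, and for lower genes among those called in at least 1 species and lower in all 4 animals. The comparisons within Sertoli-like and stroma-like barcodes were planned with at least 10 cycling barcodes per animal, which was not reached, and were run with at least 3, a choice made after seeing the data. Promoters were taken from the Mmul_10 genome with its RefSeq annotation.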

Additional observations from a re-analysis of the deposited data

How the results depend on the processing

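Of the values that answer a comparison, 145 were classed as the same under the alternatives and 45 as moved. A value classed as the same could still change in size. The baboon stroma-like share of 0.0857% was so classed at 0.0286% with 5 cycle genes and at 0.200% with types by markers. The number of members was 27 in the baboon without any germ cell gene and 37 in the rhesus monkey at 1000 drawn UMIs, where the cycling shares of rhesus Sertoli-like, stroma-like and endothelial-like barcodes were 0.0397%, 0.241% and 0%. Leaving out 1 library gave 14 to 35 baboon and 38 to 66 rhesus members, Sertoli-like shares of 0.0811 to 0.306% and 0.0519 to 0.240%, stroma-like shares of 0 to 0.113% and 0.359 to 0.690%, and a rhesus endothelial-like share of 0 to 0.585%. The stroma minus Sertoli difference then ranged from -0.231 to -0.0811 points in the baboon and from 0.200 to 0.450 in the rhesus monkey. With all barcodes of the baboon, 122 genes were higher with 3 cycle genes and 145 with others matched on UMIs, and the lower genes numbered 0 (matched; 507 genes at an unadjusted p under 0.05), 4 (DESeq2), 6 (sums per library) and 39 (animal as a block). In the rhesus monkey 122 were higher with drawn UMIs, and the lower genes numbered 18 (3 cycle genes), 17 (drawn), 2 (matched), 20 (without germ-like clusters), 3 (DESeq2), 25 (no filter) and 5 (block). Among Sertoli-like barcodes 101 (3 cycle genes), 94 (matched) and 0 (no filter; 746 at an unadjusted p under 0.05 by edgeR) were higher, and 1, 0 and 0 lower, with 3 by marker types, 1 by DESeq2 and 2 with the block. Among stroma-like barcodes 12 (matched), 4 (DESeq2), 1 (block) and 77 (sums per library) were lower. Leaving out 1 library gave 164 to 199 higher and 16 to 21 lower genes in the baboon, 143 to 164 and 32 to 45 in the rhesus monkey, 110 to 150 and 4 to 9 among Sertoli-like and 111 to 125 and 11 to 24 among stroma-like barcodes. Without baboon 2 or rhesus 1 only 1 animal was left and no gene test was made. The replicate block, which pairs the sums of an animal, gave 212, 149, 163 and 151 higher genes in the 4 comparisons.

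Some gene values turned their direction. With 3 cycle genes CRYAB and PTGDS were at 0.11 and 1.03 in the baboon, and IGF1, CRYAB and RAMP2 at 0.56, 0.11 and 0.56 among Sertoli-like barcodes, with RAMP2 at 0.56 by DESeq2. Without library 1B CD3D and NKG7 were at -8.13 and -7.92, against 4.02 and 5.34 without library 1A, and with drawn UMIs CSF1R was at -9.64. Of the other values of single genes 4937 kept their call, 656 lost it and 8 gained it. The cause was not tested. The version that left out germ-like clusters and the marker-based stroma comparison were chosen after seeing the data.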
